A study of Homo sapiens with 2 samples.

Results

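The miR-26 family comprises the microRNAs cut from 3 hairpins, mir-26a-1, mir-26a-2 and mir-26b, each lying in an intron of a gene for a small phosphatase of the CTDSP group. All rows of the deposited table that belong to these 3 hairpins were taken, from both arms of each hairpin. They were 6 of 1546 rows, 3 of 1095 hairpins and 5 of 1497 mature names, because miR-26a-5p is the product of 2 hairpins. The RNA came from A375, a line established from a human melanoma, kept with the solvent DMSO for 48 h. This was the only group, with 2 libraries that the labels call independent replicates, and no genotype or drug was compared. The labels do not say whether they came from separate cultures, so the spread between them may be technical. Levels are given as RPM, reads per 1000000 read assignments of a library, and values written with ± are the mean and SD over both libraries (n = 2).

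A microRNA gene is transcribed, folded into a hairpin and cut to a short duplex, of which one strand, the guide, is usually kept in an Argonaute protein and the other, the passenger, is usually lost. The guide finds messenger RNAs mainly through its seed, bases 2 to 8. MiR-26 guides are known as repressors of cell cycle genes and of the histone methyltransferase EZH2, and the host genes encode phosphatases that act on the tail of RNA polymerase II and on the retinoblastoma protein.

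The mature sequences show which products can be assigned to a single gene, with the seed in capitals (RefSeq, GRCh38.p14). The prefix hsa-, for human, is left out of names elsewhere.
hsa-miR-26a-5p: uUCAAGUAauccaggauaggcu
hsa-miR-26b-5p: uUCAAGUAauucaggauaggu
hsa-miR-26a-1-3p: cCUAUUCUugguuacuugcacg
hsa-miR-26a-2-3p: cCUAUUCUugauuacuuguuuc
hsa-miR-26b-3p: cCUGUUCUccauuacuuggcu
Both 5p arms carry the seed UCAAGUA. Counted from the 5′ end, miR-26b-5p differs from miR-26a-5p over their shared 21 bases by C11U and C21U, both outside the seed. The 3p arms of the mir-26a hairpins share the seed CUAUUCU and differ by G11A, C19U, A20U, C21U and G22C. Relative to miR-26a-2-3p, miR-26b-3p carries A4G inside the seed and 4 further differences, so its seed is CUGUUCU. Each 3p arm therefore marks 1 gene, whereas miR-26a-5p is identical from both mir-26a genes. RefSeq held 2 further names with the seed UCAAGUA, shown because they could add to the same seed pool.
hsa-miR-1297: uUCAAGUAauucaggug
hsa-miR-4465: cUCAAGUAgucugaccagggga
Neither of them has a row in the table, so no value can be given for either.

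The hairpins are shown in full because the arms, in capitals, sit in the same order in all 3, 5p first.
mir-26a-1: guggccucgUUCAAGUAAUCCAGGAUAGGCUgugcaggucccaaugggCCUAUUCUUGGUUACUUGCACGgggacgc
mir-26a-2: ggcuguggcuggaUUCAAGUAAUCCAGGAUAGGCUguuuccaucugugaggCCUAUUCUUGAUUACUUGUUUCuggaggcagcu
mir-26b: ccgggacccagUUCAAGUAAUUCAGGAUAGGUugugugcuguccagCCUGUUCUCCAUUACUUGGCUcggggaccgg
In GRCh38 with GENCODE 29, MIR26A1 lies at chr3:37969404-37969480 on the plus strand, in intron 5 of 7 of the principal CTDSPL transcript. MIR26A2 lies at chr12:57824609-57824692 on the minus strand, in intron 5 of 7 of CTDSP2. MIR26B lies at chr2:218402646-218402722 on the plus strand, in intron 4 of 6 of CTDSP1. The introns are 3524, 2026 and 629 bases long, each hairpin runs in the direction of its host, and none overlapped an exon of any annotated host transcript. The build behind the deposited values is not given in the sources used here.

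The libraries held 10816826 read assignments in replicate 1 and 15428446 in replicate 2, so 1 read was worth 0.0924 and 0.0648 RPM. Of 7 microRNAs listed for melanocytes and melanoma, 6 reached 10 RPM in each library, against 22.4% of the 1497 names in the table. The exception, the melanocytic miR-211-5p, had 3 and 2 reads. The list summed to 21524 and 20096 RPM. Most of it was miR-221-3p, at 8923 and 7992 RPM, and miR-222-3p, at 9376 and 9111 RPM. A count of listed names at 10 RPM does not by itself identify a lineage. The listed markers of other cell types were mostly low. Of the blood names, 3 of 5 had a row and summed to 2.68 and 2.53 RPM. Of the epithelial names, 4 of 4 summed to 22.4 and 33.4 RPM, most of it miR-141-3p, at 15.6 and 23.2 RPM. The 1 of 1 liver name came to 0.277 and 0.519 RPM and 1 of 3 muscle names to 0.647 and 0.13 RPM. MiR-144-3p, miR-223-3p, miR-1 and miR-206 had no row, and the red cell miR-451a was seen as 1 read in replicate 1 and not at all in replicate 2 (a level of up to 0.194 RPM could give 0 reads there). The lists are short, and names outside them that are known from the same tissues were higher. MiR-486-5p, known from red cells, had 171 and 200 RPM, and miR-192-5p, known from liver and gut, 4490 and 4715 RPM. MiR-200b-3p, of the epithelial miR-200 family, had 284 and 485 reads. The lists therefore cannot show that such cells were absent. In such bulk RNA, fewer cells that make a microRNA and less of it per cell cannot be told apart.

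MiR-26a-5p was the leading product of the family. It had 11175.5 RPM in replicate 1 and 13203.6 RPM in replicate 2, from 120883 and 203711 reads. It stood at 12189.5 ± 1434 RPM and was number 16 of 1497 in each library. MiR-26b-5p, the guide with the same seed, had 1244 and 1179.8 RPM, from 13459 and 18203 reads. It stood at 1212 ± 45.6 RPM, number 60 in replicate 1 and number 63 in replicate 2. The ranges of the guides did not overlap. MiR-26a-5p was 8.98-fold above miR-26b-5p in replicate 1 and 11.2-fold in replicate 2, or 3.32 ± 0.22 on the log2(RPM + 1) scale, and it made up 90.9% ± 1.28 of the RPM carrying the seed UCAAGUA. With 2 libraries no exact test of such a ratio can go below p = 0.5, so the gap is given against the spread only. How many mismatches the authors' alignment allowed between guides that differ at 2 positions is not stated. Adapter ligation favours some sequences, and RPM of different microRNAs are not exact molar ratios.

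The passenger strands were far lower. MiR-26a-2-3p had 21.8 and 25.1 RPM, from 236 and 388 reads. MiR-26b-3p had 22.6 and 14.3 RPM, from 245 and 221 reads, and overlapped miR-26a-2-3p. MiR-26a-1-3p had 2.03 and 2.66 RPM, from 22 and 41 reads, and lay below the range of both other passengers. The 3 passengers together made up 0.333% ± 0.0573 of the family's RPM. The family as a whole held 1.61% of replicate 1 and 1.84% of replicate 2, after each mature name had been reduced to 1 value. Of the 5 mature names, 4 stood at 10 RPM or more in both libraries, miR-26a-1-3p being the exception, against 22.4% of the 1497 names in the table.

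**Figure D1:**
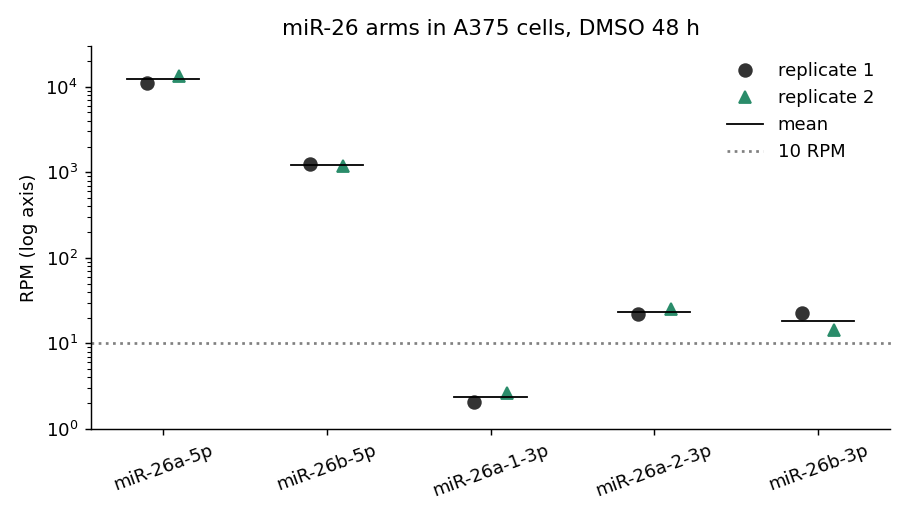
RPM on a log axis for the 5 mature names of the miR-26 family, with replicate 1 as circles, replicate 2 as triangles, the mean as a bar and a dotted line at 10 RPM. The guides miR-26a-5p and miR-26b-5p lie at 12189.5 and 1212 RPM on average, and miR-26a-1-3p, at 2.03 and 2.66 RPM, is the only name under the dotted line.

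The copies of miR-26a-5p could not be divided between CTDSPL and CTDSP2. The row of mir-26a-2 held 11175.5 and 13203.6 RPM, and the row of mir-26a-1 held 11171.0 and 13198.1 RPM. The gap was 48 reads in replicate 1 and 85 reads in replicate 2, always in favour of mir-26a-2, or 0.0397% and 0.0417% of the reads. In the hairpins printed above, the first 2 bases after the 5p arm are the same in both genes and 0 bases before it are, so a read can belong to 1 gene only if it runs past these limits. The table gives the difference between the copies, not the number of reads specific to each. Among 34 mature names with several hairpins and a mean of 10 RPM or more in their highest copy, 13 had copies within 1% of each other, and miR-26a-5p had the 5th smallest gap.

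The 3p arms, which do differ in sequence, separated the genes. MiR-26a-2-3p, from the CTDSP2 intron, was 10.7-fold above miR-26a-1-3p, from the CTDSPL intron, in replicate 1, with an exact 95% interval for counting error of 6.92 to 17.4. In replicate 2 it was 9.46-fold above it, with an interval of 6.85 to 13.4. The intervals of the libraries overlapped each other, and both lay above 1. Of the 3p reads of the mir-26a hairpins, 91.5% in replicate 1 and 90.4% in replicate 2 came from mir-26a-2. These are levels of passenger strands, and how the guide divides between the genes was not measured.

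Unequal passengers were common among microRNAs with copies. There were 10 mature names, miR-26a-5p included, with 2 hairpins, a major arm of 100 RPM or more whose lower copy had at least 0.9 of the higher, and a minor arm of its own for each hairpin with at least 1 read in each library. This set was put together after the values were seen. Their minor arms differed by a median of 9.62-fold. The mir-26a hairpins were number 5 of 10, below mir-16-2 over mir-16-1 (51.5-fold and 45.5-fold) and just above mir-125b-1 over mir-125b-2 (7.38-fold and 11.4-fold), with which they changed order between the libraries. At the low end, the copies of miR-30c-5p changed order between the libraries.

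**Figure D2:**
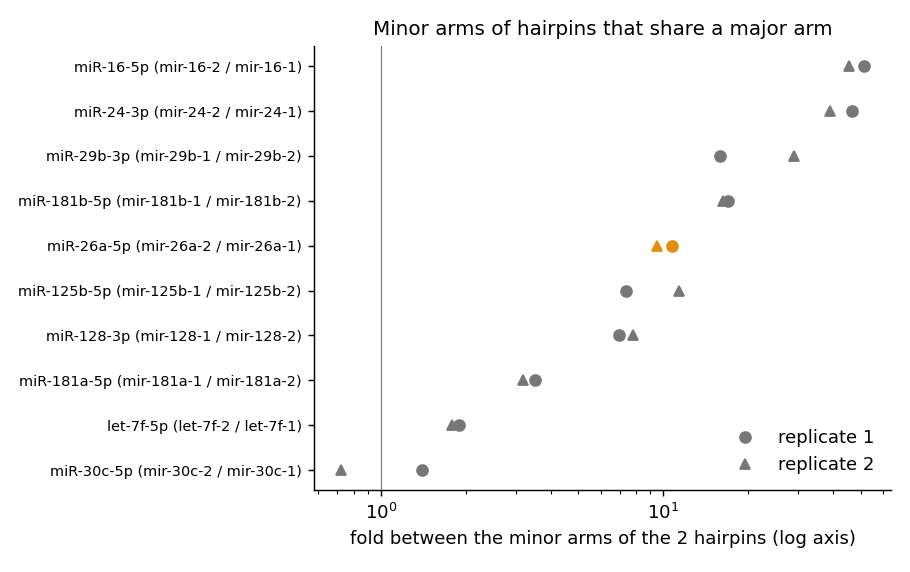
Fold between the minor arms of hairpins that share a major arm, on a log axis, for 10 mature names, with replicate 1 as circles and replicate 2 as triangles. The hairpin with the higher minor arm is named before the other, and the miR-26a-5p hairpins, in orange at 10.7-fold and 9.46-fold, lie in the middle of the set.

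All 3 hairpins kept the 5p arm, to very different degrees. Mir-26a-1 had a log2 ratio of 5p over 3p of 11.83 ± 0.02, the highest of the 137 hairpins whose arms both had a row and together averaged at least 100 RPM, followed by mir-186 at 11.42 ± 0.78. Mir-26a-2, at 8.96 ± 0.03, was number 13, between mir-204 at 9.09 ± 0.25 and let-7f-1 at 8.88 ± 0.12. Mir-26b, at 5.99 ± 0.39, was number 41, between mir-769 at 6.00 ± 0.02 and mir-30b at 5.88 ± 0.33. Each of these neighbours overlapped the miR-26 hairpin beside it in its range of mean ± SD, so the places in this order are not resolved. Among the 137 hairpins, 80 had the higher 5p arm in both libraries. Each single mir-26a hairpin was credited with nearly all reads of the shared 5p arm. With the 5p value split equally, the ratio was 10.83 for mir-26a-1 and 7.96 for mir-26a-2. That of mir-26a-1 was then below not only mir-186 but also mir-182 (11.3), mir-192 (11.3) and mir-10b (11.2). That of mir-26a-2 was then below let-7g (8.37) and mir-146a (8.32). The high places of both hairpins thus depend on how the shared reads are counted.

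A measure that does not need the shared reads to be divided is the joint 3p share of both mir-26a hairpins, with the 5p reads counted once. It was 0.213% in replicate 1 (exact Clopper-Pearson 95% interval 0.188 to 0.241%) and 0.21% in replicate 2 (0.191 to 0.231%). The 3p share of mir-26b was 1.79% (1.57 to 2.02%) and 1.2% (1.05 to 1.37%). It exceeded the mir-26a share by 8.39-fold and 5.71-fold, and the intervals of the genes did not overlap in either library. The median share of the minor arm over the 137 hairpins was 1.99% and 1.93%. The mir-26b share lay below that median in both libraries, and the mir-26a share was far below it. The guides differed 8.98-fold and 11.2-fold, where miR-26a-5p pools 2 genes and miR-26b-5p comes from 1. Of the passengers, each from 1 gene, miR-26a-2-3p stood at 0.963-fold of miR-26b-3p in replicate 1 and 1.76-fold in replicate 2. Intervals here cover counting error only, since reads copied by PCR are not independent molecules.

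**Figure D3:**
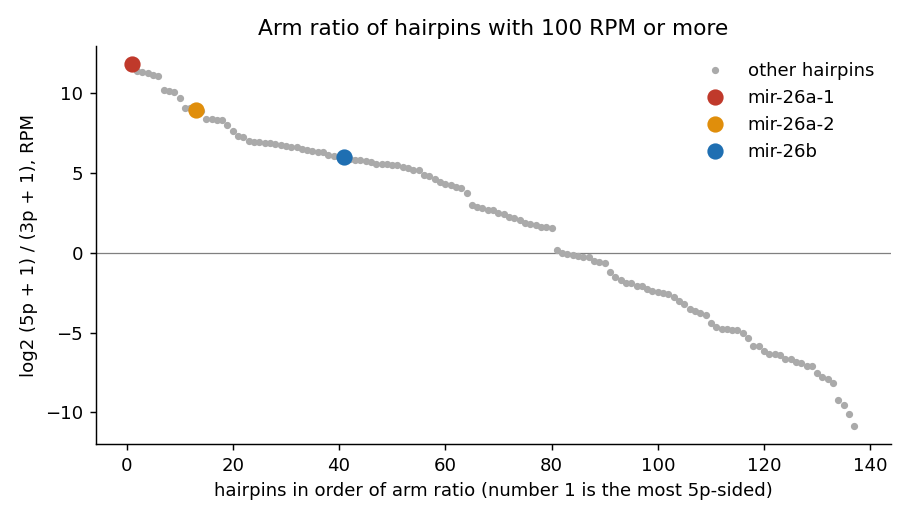
Log2 ratio of the 5p over the 3p arm (RPM + 1, mean of both libraries) for 137 hairpins in falling order, with a line at 0 where the arms are equal. The miR-26 hairpins are coloured, with a bar from one library to the other where it exceeds the symbol, and stand at 11.83, 8.96 and 5.99, all on the 5p side.

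As background, Argonaute loading is known to favour a strand that starts with U and is loosely paired at its 5′ end. All 5p arms start with U and all 3p arms with C. Of the higher arms of the 137 hairpins, 62.3% of the 114 with a RefSeq sequence started with U, and of the lower arms 41% of 122 started with C. In the minimum free energy folds of RNAfold, the first 4 bases of the 5p arm were paired at 3 positions in mir-26a-1, 2 in mir-26a-2 and 3 in mir-26b, with 1 G-C pair each. The first 4 bases of the 3p arm were all paired in each hairpin, with 2 G-C pairs. The predicted energies were -37.3, -41.3 and -40.2 kcal/mol, and the arms were separated by 17, 16 and 14 bases. The arm ratios spanned 5.99 to 11.83 on the log2 scale, the latter with nearly all shared 5p reads credited to mir-26a-1. Whether any of these features sets the ratio was not tested.

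The libraries were compared member by member. A miRNA was called different at an adjusted p under 0.05 (Fisher's exact test on reads, two-sided, Benjamini-Hochberg over 869 miRNAs) and a fold above 2. By this rule 40 miRNAs, 4.6%, were called and 0 of the 5 members were, a count too small to set the family apart from that share. Without the fold limit, 34.5% were called, and 3 of the 5 members were. At an unadjusted p under 0.05, 40.7% passed, and again 3 of the 5 members. The 3 at an adjusted p were miR-26a-5p (adjusted p below 1e-300), miR-26b-5p (1.6e-05) and miR-26b-3p (5.1e-06) by Fisher's exact test, which compares the reads of these libraries and not conditions. MiR-26a-1-3p and miR-26a-2-3p missed the limit at 0.58 and 0.19 in the same exact test. With the libraries scaled to the median ratio of expressed miRNAs, miR-26b-5p missed the limit (adjusted p = 0.231) and miR-26a-2-3p passed it (adjusted p = 0.0318) in that exact test, so both calls depend on the scaling. At 120883 and 203711 reads, even a 1.18-fold difference, that of miR-26a-5p, passes such a test.

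On the log2(RPM + 1) scale, replicate 2 over replicate 1 came to 0.24 for miR-26a-5p, -0.08 for miR-26b-5p, 0.27 for miR-26a-1-3p and 0.20 for miR-26a-2-3p. The median absolute difference over the 346 miRNAs that averaged at least 10 RPM was 0.25, and the median of the signed differences was -0.10. With the libraries scaled to the median RPM ratio of the 335 miRNAs at 10 RPM or more in both, miR-26b-5p stood at 0.027 instead of -0.08. Its direction therefore depends on the scaling. MiR-26b-3p differed most, at -0.63, or 1.58-fold higher in replicate 1, and 22 of the 346 miRNAs, 6.36%, had a larger difference. Its 3p share of mir-26b reads fell outside the counting interval of the other library, as given above. At the authors' scale, all 3 products of the mir-26a genes were higher in replicate 2 and both products of mir-26b in replicate 1. At that scale miR-26a-1-3p and miR-26a-2-3p missed the limit (adjusted p of 0.58 and 0.19, Fisher's exact test). With the direction of miR-26b-5p depending on the scaling, the split rests on miR-26a-5p and miR-26b-3p.

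**Figure D4:**
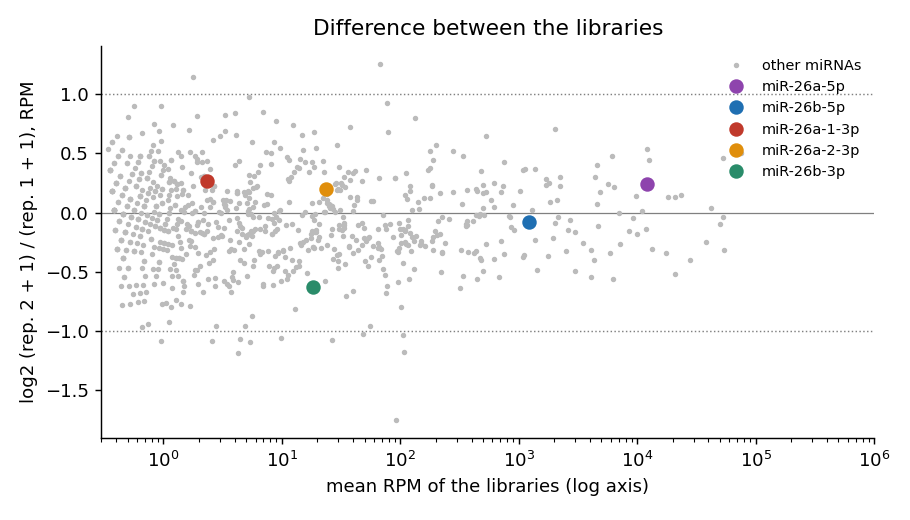
Log2 difference of replicate 2 over replicate 1 (RPM + 1) against the mean RPM on a log axis, for the 869 miRNAs with at least 10 reads in sum, with dotted lines at a 2-fold difference. The 5 members of the family are coloured and lie between -0.63 (miR-26b-3p) and 0.27 (miR-26a-1-3p), inside the dotted lines.

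Neighbours in level show how firmly the places of the guides are known. The closest by mean was miR-99b-5p, just below miR-26a-5p, with 9922 and 14414 RPM. MiR-16-5p, let-7f-5p and miR-30d-5p were next above it, and miR-21-3p and miR-140-3p further below. Let-7f-5p, miR-16-5p, miR-99b-5p and miR-21-3p each changed order with miR-26a-5p between the libraries, while miR-30d-5p was above it and miR-140-3p below it in both. MiR-26b-5p stood between miR-584-5p (1301 ± 12.9 RPM) and miR-24-3p (1119.7 ± 204 RPM), with let-7b-5p and miR-125b-1-3p further above and miR-1307-3p and miR-320a further below. It changed order with miR-125b-1-3p and miR-24-3p, and its range overlapped those of miR-1307-3p and miR-320a but not those of let-7b-5p and miR-584-5p. These are likenesses of level over 2 libraries.

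Introns of paralogous genes carry other microRNA families, and the CTDSP set was the most abundant of the 8 such sets listed. The list was chosen with earlier results of these data known, so this rank holds only within it. Its arms summed to 12466 and 14426 RPM. The set in the PANK genes, which encode pantothenate kinases, came next at 5663 and 4291 RPM, with miR-103a-3p 7.06-fold and 7.02-fold above miR-107. The TRPM set followed at 2771 and 2501 RPM, where miR-204-5p had 29920 and 38534 reads and miR-211-5p 3 and 2. The sterol regulator genes SREBF1 and SREBF2 carry miR-33b and miR-33a. MiR-33b-5p (125 ± 12.7 RPM) was 7.25-fold and 7.92-fold above miR-33a-5p (16.6 ± 2.72 RPM). The gap between guides of 8.98-fold and 11.2-fold in the CTDSP set was wider than in the PANK and SREBF sets in both libraries, with no test of the difference. It was narrower than in the TRPM set, at 9973-fold and 19267-fold, where miR-211-5p rests on 3 and 2 reads. MiR-26a-5p and miR-103a-3p each pool 2 genes, whereas each SREBF guide comes from 1. The CTDSP and SREBF gaps are therefore not on the same basis gene by gene. The sets in R3HDM1 and ARPP21 (miR-128-3p) and in the SLIT genes (miR-218-5p) give the same guide from each gene. The PTPRN and MYH sets summed to at most 1.2 RPM in either library.

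Other microRNAs known to act on the same targets were present at a range of levels. Of 4 further names listed as repressors of EZH2, miR-101-3p stood at 2496 ± 397 RPM and miR-138-5p at 687 ± 181 RPM, miR-214-3p had 2 reads and 1 read, and miR-124-3p had no row. All 3 with a row were below miR-26a-5p, and 2 were below miR-26b-5p. Of 15 names listed as repressors of cyclins and their kinases, 12 reached 10 RPM in each library, against 22.4% of all names in the table. The median of the list was 125 RPM, against 0.588 RPM over all names in the table. Let-7a-5p (41893 ± 717 RPM) was above miR-26a-5p in both libraries. MiR-16-5p was above it by mean but below it in replicate 1, at 10598 against 11175.5 RPM. By mean, 13 of the 15 were below miR-26a-5p and 11 were below miR-26b-5p. The p53 target miR-34a-5p, at 510 ± 5.65 RPM, was among these. Of the 18 listed names of both groups with a row, 17 had enough reads for the exact test between the libraries, and 0 were called under the rule with the fold limit, against 4.6% of all tested, while 11 passed an unadjusted p under 0.05, against 40.7% of all tested.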

How the data were processed

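Per the labels' protocols, total RNA was taken with the miRNeasy kit and made into Illumina libraries. CASAVA 1.8 and cutadapt 1.2.1 were used, per the submitters' processing notes. How reads were aligned, and to which miRNA release and build, is not given in the sources used here. The authors deposited RPM per hairpin and mature name, with decimal commas. Each column summed to 1000000, and 100% of values were whole multiples of 1 read (within 0.01 reads), so read numbers were recovered. No row was 0 in both libraries. Columns were matched to samples by the sample descriptions.

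For each mature name the copy with the highest value was used. Among the 34 multi-copy names averaging at least 10 RPM, the lowest copy reached 0.9 of the highest for 27, and the smallest ratio, that of miR-548f-3p, was 0.0114. Shares refer to the total after this step (77.6% and 78.3% of the deposited total). Logarithms used a pseudocount of 1 RPM, which understates ratios of low arms. Fisher's exact test (SciPy 1.17.1) covered miRNAs with at least 10 reads in sum, with 0.5 reads added for folds. It was tried on simulated data that held counting error only, so the simulation does not cover further spread between these libraries. No model of counts over replicates could be fitted to 1 group. Sequences came from RefSeq (GRCh38.p14), where 1317 of 1497 names matched, host genes from GENCODE 29, and folds from RNAfold 2.7.2. The miRNAs named were the family, names with its seed, the 3 names on either side of each guide in level, the hairpins beside each miR-26 hairpin in arm ratio, and the lists of host sets, EZH2 and cell cycle repressors and cell type markers. Members and lists were chosen with earlier results of these data known, and names outside this rule after their values were seen. Alternatives covered copies, scaling, pseudocounts, limits and leaving out each replicate.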

Additional observations from a re-analysis of the deposited data

How the results depend on the processing

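Of 87 alternatives over 19 results, 64 kept the direction and either their side of the limit or a place within the spread of the libraries. Part of the 64 was fixed in advance, so the count is not a measure of robustness. Leaving out 1 of 2 libraries always moves a mean by less than their SD. Summing or averaging copies changes nothing for a name with 1 hairpin. For the differences between the libraries, another pseudocount can alter neither the direction nor the call. With copies summed, miR-26a-5p stood at 24374 RPM, the log2 ratio of miR-26a-5p over miR-26b-5p was 4.32, the family held 2.56% of the deposited total and the joint 3p share of the mir-26a hairpins was 0.106%. With the 5p value split equally, the log2 arm ratio was 10.83 for mir-26a-1 and 7.96 for mir-26a-2. Pseudocounts of 0.1 and 10 RPM gave arm ratios of 12.29 and 9.94 for mir-26a-1 and of 9.01 and 8.51 for mir-26a-2, and 10 RPM gave 5.44 for mir-26b. On reads with 0.5 added they were 12.33 for mir-26a-1 and 9.02 for mir-26a-2. The log2 ratio of miR-26a-2-3p over miR-26a-1-3p, whose alternatives, like that of the joint 3p share, were chosen after seeing the data, was 3.28, 1.44 and 3.33 with pseudocounts of 0.1, 10 and none, against 2.87 with 1 RPM. Without the most abundant miRNA in the total, miR-26b-5p stood at 1309.8 RPM and the family held 1.91%. Median-ratio scaling over expressed miRNAs shifted the median log2 difference by 0.10 and turned that of miR-26b-5p to 0.027; without the fold limit miR-26b-5p was then not called and miR-26a-2-3p was. Under it 15 of 38 called miRNAs were higher in replicate 2, against 11 of 40 at the authors' scale. With a fold limit of 1.5 the count of called miRNAs was 81, and with none 300. At 1 and 100 RPM, 593 and 161 miRNAs counted as expressed, against 335 at 10 RPM. No paired analysis was possible because there is 1 group. MiR-26a-1-3p rests on 22 and 41 reads, which limits every ratio that uses it.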
